A study of Mus musculus with 10 samples.

Results

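YTHDC1 RIP peaks of 1 to 4 kb are the intervals of the deposited YTHDC1 RNA immunoprecipitation (RIP) peak list whose end minus start is over 1000 bp and under 4000 bp. The rule found 1079 such peaks among 30992 RIP peaks. Of the others, 26084 were 1000 bp or less (narrower peaks) and 3829 were 4000 bp or more (wider peaks). The peaks were chosen by their measured width, so widths are given here as a description, and position, gene content, neighbours and m6A were compared. The study used male mouse embryonic stem cells from the inner cell mass of a 129 strain, grown without feeders in serum and LIF. The RIP came from cells with a Halo tag knocked into Ythdc1: Halo-tagged YTHDC1 was pulled down on beads, washed under denaturing conditions without nuclease digestion or fragmentation, and its RNA was released with a protease. There was 1 RIP sample and 1 input of total RNA, so no spread between RIP replicates could be measured. For N6-methyladenosine (m6A), there were 2 precipitates and 2 inputs of Mettl3 wild-type cells and the same of Mettl3 knockout cells, giving 10 samples in all. The m6A peaks came as 1 list per genotype, with 12368 wild-type and 6764 knockout peaks. For 1 of the 2 knockout precipitates the label points to the wild-type peaks. Knockout m6A peaks are named after their list, and whether they mark m6A was not tested.

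YTHDC1 is the nuclear reader of m6A, a mark written on RNA by a complex whose catalytic subunit is METTL3. In embryonic stem cells YTHDC1 is known for binding nuclear RNAs that include transcripts of retrotransposons such as LINE1 and IAP elements, and for roles in chromatin silencing and splicing. Retrotransposons are present in many near-identical copies, spread over all chromosomes. How reads that match several copies were assigned is not given in the sources used here, no repeat annotation was used, and signal from near-identical copies cannot be told apart. The peak lists give positions (mm10) without strand, height or score, so the depth behind a peak is unknown.

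Few of the peaks reached a gene start, which makes the exceptions the places where their bases could be read next to an annotation. Of the 1079 peaks, 3 (0.278%, exact 95% interval 0.0574 to 0.81) shared at least 1 bp with a RefSeq promoter window, defined as 250 bases before to 50 after a transcription start. The share was 5.77% of narrower peaks (1504) and 0.888% of wider peaks (34). The 3 windows are printed 5′ to 3′ from RefSeq (GRCm38.p6, the mm10 coordinates), with the bases that lie inside the RIP peak in capitals. They are chr3:75655682-75655981 on the minus strand for Platr10, chr13:62553887-62554186 on the minus strand for Gm38639, and chrX:79688908-79689207 on the plus strand for Gm52435.
Platr10: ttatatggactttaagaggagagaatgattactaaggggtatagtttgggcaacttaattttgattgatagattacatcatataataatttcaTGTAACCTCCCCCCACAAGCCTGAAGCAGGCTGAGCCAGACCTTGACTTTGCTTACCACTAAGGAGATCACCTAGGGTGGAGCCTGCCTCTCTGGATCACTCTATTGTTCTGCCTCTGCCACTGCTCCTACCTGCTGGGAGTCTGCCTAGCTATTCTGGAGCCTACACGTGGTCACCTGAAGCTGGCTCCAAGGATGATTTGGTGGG
Gm38639: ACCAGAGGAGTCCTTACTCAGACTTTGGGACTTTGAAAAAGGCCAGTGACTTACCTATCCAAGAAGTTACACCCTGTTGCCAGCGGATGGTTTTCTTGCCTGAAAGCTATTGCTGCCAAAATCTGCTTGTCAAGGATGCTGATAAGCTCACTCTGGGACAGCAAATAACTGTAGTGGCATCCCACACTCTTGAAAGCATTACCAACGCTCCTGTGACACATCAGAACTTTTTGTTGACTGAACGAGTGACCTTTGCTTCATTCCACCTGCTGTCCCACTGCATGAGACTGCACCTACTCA
Gm52435: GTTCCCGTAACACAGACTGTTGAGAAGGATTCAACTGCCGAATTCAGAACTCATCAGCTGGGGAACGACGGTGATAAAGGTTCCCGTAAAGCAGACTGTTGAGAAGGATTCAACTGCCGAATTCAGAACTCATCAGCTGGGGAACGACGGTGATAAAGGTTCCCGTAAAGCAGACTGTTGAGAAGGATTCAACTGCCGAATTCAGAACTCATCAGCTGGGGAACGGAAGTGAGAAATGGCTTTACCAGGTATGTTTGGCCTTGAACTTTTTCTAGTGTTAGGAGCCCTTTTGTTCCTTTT
The peak of 2166 bp on the Platr10 start (chr3:75653723-75655888) covered 207 of the 300 bases, from base 94 to the end of the window. The 2252 bp peak at Gm38639 (chr13:62553318-62555569) and the 1350 bp peak at Gm52435 (chrX:79688800-79690149) covered all 300. The Gm38639 window also carried 1 wild-type m6A peak, and the other windows carried no m6A peak of either list. The Gm52435 window repeated itself: shifted against its own sequence by 79 bases, 75.6% of the 221 bases compared were identical, where the best shift of 10 to 150 bases gave 32.1% for Platr10 and 33.1% for Gm38639. The motif GGACT, a common form of the m6A consensus, was searched on both strands (as GGACT or AGTCC). It occurred 1 time in the Platr10 window, among the lower-case bases outside the RIP peak, 2 times in the Gm38639 window, inside the peak, and not in the Gm52435 window, and 45.5% of all 32851 windows held it. TATAAA, searched on both strands, was in none of the 3 windows and in 13.6% of all windows.

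The widths ran from 1003 to 3985 bp, with a median of 1382 bp (quartiles 1102 and 2523 bp), and the peaks covered 2.03 Mb. Just outside the limits lay peaks of 997 bp (in Rsrc1, a splicing-related gene) and 998 bp below, and of 4000 and 4025 bp (in Gria3, a glutamate receptor subunit) above. The narrowest inside were 1003 bp, 1005 bp, 1006 bp (in Adgrb3, an adhesion G protein-coupled receptor) and 1007 bp (in Tada2a, a subunit of histone acetyltransferase complexes). The widest inside was 3985 bp.

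Exact widths recurred. A width was called recurring where at least 5 peaks shared it and their number was at least 3 times the mean number per bp of width in the 50 bp on either side. By that description 19 widths recurred and together held 280 of the 1079 peaks (25.9%), whereas 488 of the 635 distinct widths were held by 1 peak. The commonest was 1095 bp with 83 peaks on 20 chromosomes, against a mean of 2.02 peaks at each surrounding width. The next were 1097 bp with 40 peaks on 18 chromosomes, 1098 bp with 21, 1093 bp with 20 and 1658 bp with 17. All 6 widths from 1093 to 1098 bp recurred, and they held 184 peaks (17.1%) on all 21 chromosomes.

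**Figure D1:**
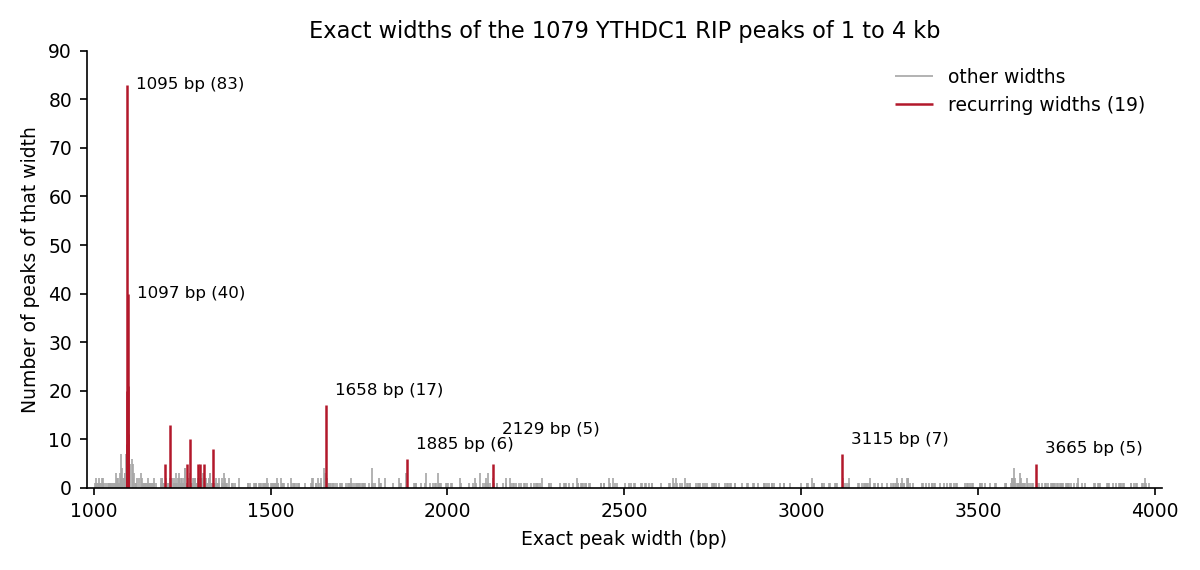
Number of YTHDC1 RIP peaks (vertical axis) at each exact width in bp (horizontal axis) among the 1079 peaks of 1 to 4 kb; red lines are the 19 recurring widths and grey lines the others. The 83 peaks of 1095 bp and the 40 of 1097 bp stand far above their neighbours, and the rest of the range holds isolated lines such as 1658 bp (17) and 3115 bp (7).

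The peaks of 1093 to 1098 bp lay in gene spans about as often as the 1079 as a whole. The midpoint was in a gene span for 63 of the 184 (34.2%, exact 95% interval 27.4 to 41.6), against 31% of the 1079 peaks and 73.9% of all RIP peaks. Their median distance to the next RIP peak was 56781 bp, beside 33824 bp over the 1079, although 23 had a neighbour within 5 kb and 6 lay exactly 6 bp from one. Wild-type m6A peaks touched 2 of the 184, beside 2.78% of the 1079 and 5.64% of all RIP peaks. Knockout ones touched 0, which allows a share of up to 1.63%, above the 0.649% of the 1079 and below the 4.83% of all RIP peaks. Peaks of 1095 bp lay in Khdrbs2 (an RNA-binding protein of the STAR family; chr1:32485508-32486602), Nek6 (a mitotic kinase; chr2:38565067-38566161) and Sirpa (a receptor for CD47; chr2:129612085-129613179). Peaks of 1097 bp lay in Mov10 (an RNA helicase that restricts retrotransposons; chr3:104809379-104810475) and Ntf3 (neurotrophin 3; chr6:126135719-126136815). Nek7, Tnfsf10 and Arhgap24 held peaks of 1098 bp, and Astn2, Skint5, Sun1 and Slc28a1 held peaks of 1093 bp. In each of these genes the peak was inside the span: its midpoint was 219170 bp from the nearest span end in Khdrbs2, 8693 bp in Mov10 and 1748 bp in Tnfsf10, which encodes the death ligand TRAIL.

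Other recurring widths were tied to a region. Of the 17 peaks of 1658 bp, 15 were on the Y chromosome and 12 had another of the same width within 1 Mb; the single gene with such a peak was Ccdc62 on chromosome 5 (chr5:123941258-123942915). All 7 peaks of 3115 bp were on X, between 27638480 and 35028978. All 5 of 1300 bp were on Y, and all 5 of 2129 bp were on chromosome 2 between 175288589 and 176536829. By contrast, 1217 bp was shared by 13 peaks on 10 chromosomes, 1336 bp by 8 on 8 chromosomes and 1272 bp by 10 on 8 chromosomes. Counted over all widths, 37 neighbouring pairs had the same exact width within 1 Mb and involved 59 peaks; 12 of the pairs were on chromosome 2, 9 on Y and 5 on X.

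Some of these repeats were in tandem. Saxo1, which encodes a microtubule-stabilising protein of the axoneme, held 3 peaks of exactly 1095 bp whose starts were 1490 bp apart (chr4:86458722-86462796). On chromosome 12, outside gene spans, 3 peaks of exactly 1972 bp started 2460 bp apart (chr12:20154257-20161148). On chromosome 2, 5 same-width pairs were spaced by 97557 to 97633 bp, with widths of 1078, 1786 and 2129 bp.

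Chromosome X and Y carried more of the peaks than of the narrower ones. X held 99 of the 1079 peaks (9.18%), against 4.05% of all RIP peaks, 2.96% of narrower peaks (773) and 9.98% of wider peaks (382). The odds of lying on X were 3.31 times those of narrower peaks (95% interval 2.66 to 4.12; two-sided Fisher's exact test, with Benjamini-Hochberg adjustment, adjusted p = 9.6e-21). Against wider peaks the odds ratio was 0.912 (0.723 to 1.15; exact test, adjusted p = 0.452); it was 0.674 for peaks of 1000 to 2500 bp (adjusted p = 0.00731) and 1.14 for peaks of 1500 to 4000 bp. All such tests compare peaks of 1 list, which are not replicates, so their p-values say nothing on the spread between RIP samples. Y held 40 peaks, or 3.71%, against 0.0652% of narrower peaks (17) and 2.45% of wider peaks (94). Of all RIP peaks on Y, 26.5% were 1 to 4 kb wide, whereas this share ran from 1.85% to 4.11% over the 19 autosomes (median 3.35%) and was 7.89% on X. Per Mb, X held 0.58 peaks, Y 0.44 and the autosomes 0.294 to 0.517, highest on chromosome 2.

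**Figure D2:**
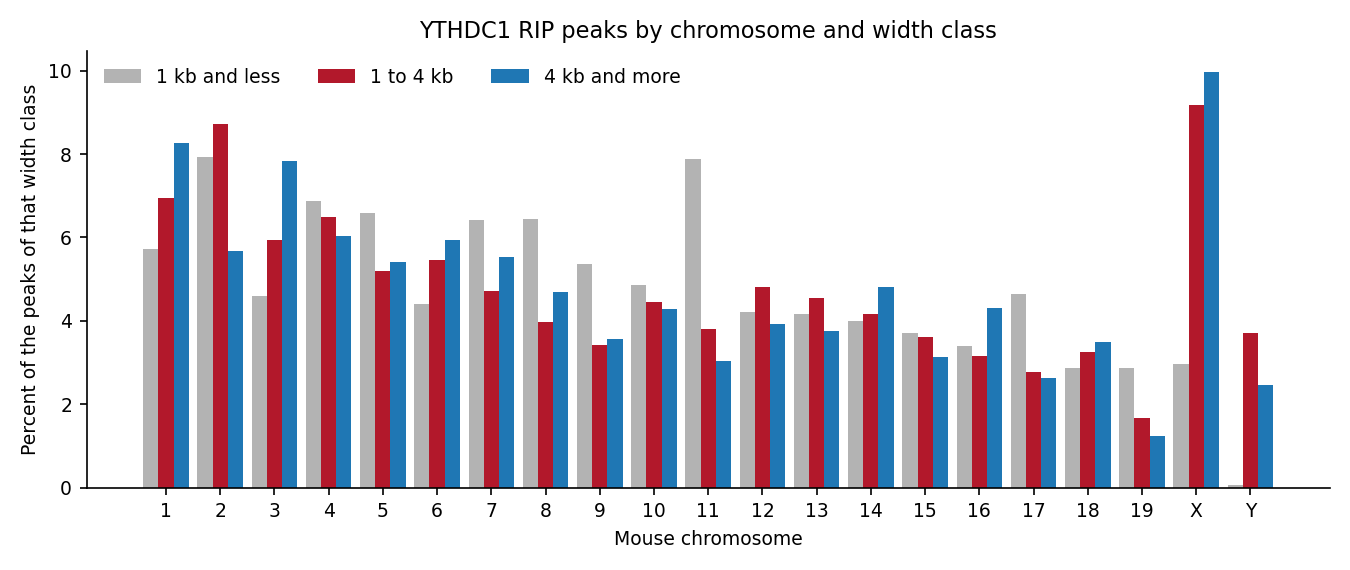
Percent of the YTHDC1 RIP peaks of each width class (vertical axis) on each mouse chromosome (horizontal axis); grey bars are peaks of 1 kb and less (26084), red bars 1 to 4 kb (1079) and blue bars 4 kb and more (3829). On X the red bar (9.18%) stands beside the blue one (9.98%) and above the grey one (2.96%), and on Y the red bar (3.71%) is the tallest.

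The peaks were thinly scattered except in a few stretches. Of the 2600 windows of 1 Mb with any RIP peak, 821 held a peak of 1 to 4 kb, 634 held exactly 1, and 7 held at least 5. The densest window was 175 to 176 Mb of chromosome 2, with 13. From 175 to 178 Mb of that chromosome there were 27 peaks (9 per Mb) beside 31 narrower and 3 wider ones, and 17 of the 27 shared their width with another in the stretch. The stretch holds 43 gene spans: 36 have provisional names and the other 7 are Zfp genes, a large family of zinc finger proteins whose KRAB members repress retrotransposons. Of the 27 peaks there, 12 had their midpoint in a gene span, beside 31% of the 1079 and 73.9% of all RIP peaks. A wild-type m6A peak touched 1 of the 27, a 1240 bp peak in Gm14393, beside 2.78% of the 1079 and 5.64% of all RIP peaks. On X from 27 to 36 Mb the reverse mixture was found, with 12 peaks of 1 to 4 kb, 5 narrower and 26 wider ones. On Y from 30 to 62 Mb there were 32 peaks, 25 of them sharing a width, with 7 narrower and 42 wider ones, and none of the 32 lay in a gene span.

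Among gaps of 1 to 30 bp, that of exactly 6 bp was the commonest beside a peak of 1 to 4 kb. In the RIP list, 77 pairs of neighbours had a gap of 6 bp, and 48 of those pairs included a peak of 1 to 4 kb. No other gap from 1 to 30 bp was seen in more than 6 such pairs, and the median over those gaps was 0. The pairs involved 51 of the 1079 peaks (4.73%), against 0.18% of narrower and 1.46% of wider peaks. They lay on 17 chromosomes, and 11 of the 51 peaks were on Y.

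The partner across a 6 bp gap was a wider peak in 45 of the 48 pairs, and its width depended on the side. In 27 pairs the wider peak was on the left, at lower coordinates, and measured 5398 to 5414 bp in all but 1 (5527 bp); 11 were exactly 5413 bp. In 18 pairs the wider peak was on the right and measured 4404 to 4419 bp; 8 were exactly 4417 bp. No partner on the left was narrower than 5 kb and none on the right was 5 kb or more. In the whole list, 44 peaks were 5413 bp wide and 36 were 4417 bp. The remaining 3 pairs joined peaks of 1 to 4 kb to each other, and no pair had a narrower peak. Both partners and the gap together spanned a median of 6552 bp (6498 to 6927) with the wider peak on the left and 5624 bp (5490 to 6528) with it on the right.

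**Figure D3:**
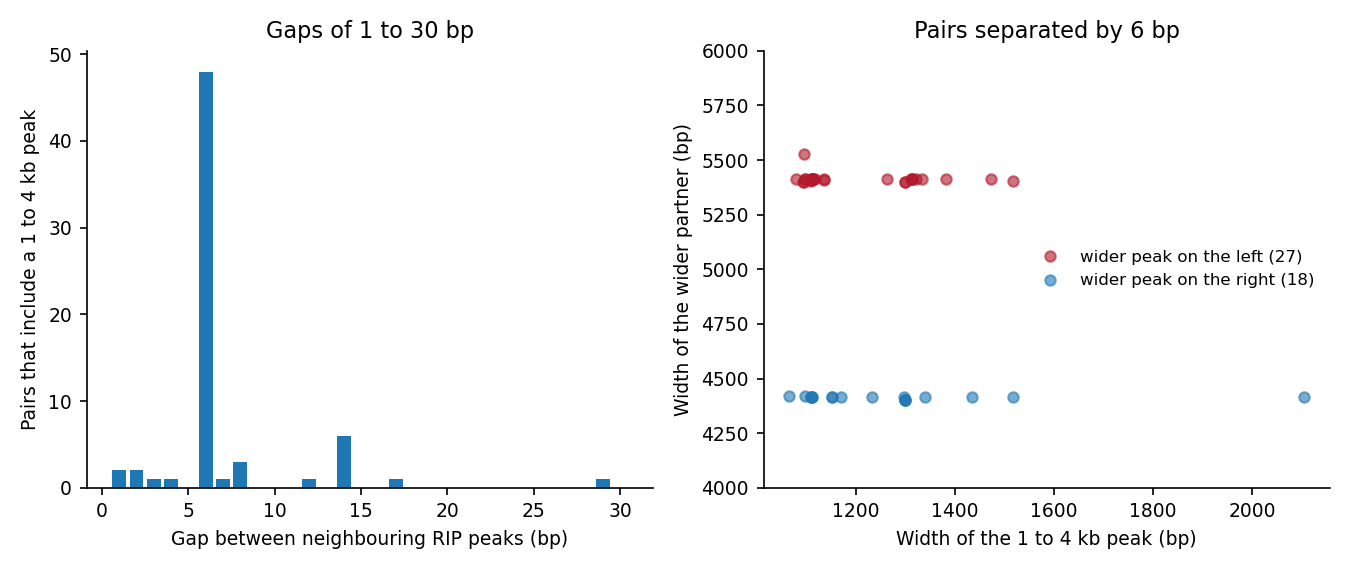
Left, number of neighbouring RIP peak pairs that include a peak of 1 to 4 kb (vertical axis) at each gap of 1 to 30 bp (horizontal axis); right, width in bp of the wider partner against that of the 1 to 4 kb peak in the pairs 6 bp apart, each point 1 pair. The bar at 6 bp reaches 48, and the partners form a level near 5413 bp when on the left (27 pairs, red) and near 4417 bp when on the right (18 pairs, blue).

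Of the 51 peaks next to a 6 bp gap, 13 lay in gene spans, beside 31% of the 1079 and 73.9% of all RIP peaks. Most of the 51 were thus outside genes. In Clock, a core transcription factor of the circadian clock, a 5411 bp peak was followed after 6 bp by one of 1334 bp (chr5:76223014-76224347). Nell1, a secreted growth factor, held 5413 bp followed by 1079 bp (chr7:50114504-50115582), and Pcdh15, a protocadherin of hair cells, held 5413 bp followed by 1114 bp (chr10:73293817-73294930). The other orientation was seen in Zfyve9, a SMAD anchor, where a 1109 bp peak (chr4:108700558-108701666) preceded one of 4417 bp. Mettl11b, an N-terminal methyltransferase, held the same widths in the same order (chr1:163710075-163711183). These genes were named after their values were seen. On Y, the succession of 1300 bp, 6 bp and 4404 bp occurred 3 times. The 1300 bp peaks at chrY:48349396-48350695 and chrY:61139784-61141083 instead followed a 5398 bp peak after 6 bp. All 5 peaks of 1300 bp thus lay at a 6 bp gap. None of the 51 peaks touched an m6A peak of either list, which allows a share of up to 5.88%; this limit lies above the shares of all RIP peaks (5.64% wild-type and 4.83% knockout), so no difference was detectable at this number.

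Over longer distances the peaks stood alone more often than narrower ones. Another RIP peak lay within 5 kb of 254 of the 1079 (23.5%, exact 95% interval 21 to 26.2), against 42.6% of all RIP peaks and 48% of narrower peaks (odds ratio 0.334, 0.289 to 0.385; two-sided Fisher's exact test, adjusted p = 2.1e-58). Wider peaks had fewer neighbours, 11.1% (odds ratio 2.47, 2.08 to 2.94; exact test, adjusted p = 9.7e-23). The median distance to the next RIP peak was 33824 bp, between that of narrower peaks (5524 bp) and wider peaks (64893 bp). Of all 30992 RIP peaks, 26084 are narrower, 3829 wider and 1079 of this class. The nearest neighbour was a narrower peak for 565 (52.4%), a wider peak for 385 (35.7%) and a peak of the same class for 129 (12%). Narrower peaks thus made up a smaller part of the nearest neighbours than of the list. Within 1 kb the order changed: wider peaks were the neighbour of 67, narrower peaks of 39 and peaks of the same class of 38. The 67 include the wider partners across 6 bp gaps described above, 27 on the left and 18 on the right.

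Most of the peaks lay outside genes. The midpoint fell in the span of a protein-coding or long non-coding RNA gene for 335 of 1079 (31%, exact 95% interval 28.3 to 33.9), against 73.9% of all RIP peaks, 82.4% of narrower peaks and 28.1% of wider peaks. The odds were far lower than for narrower peaks (odds ratio 0.0963, 0.0843 to 0.11; two-sided Fisher's exact test, adjusted p = 1.1e-283). Against wider peaks the odds ratio was 1.15 (0.996 to 1.34; exact test, adjusted p = 0.0775), and this comparison changed with the width limits: it was 1.27 (adjusted p = 0.00597) for peaks of 1000 to 2500 bp and 0.863 for peaks of 1500 to 4000 bp. The 744 peaks outside spans had a median distance of 43443 bp to the nearest span. Counting every RefSeq gene model, pseudogenes and small RNAs included, 351 midpoints were in a model.

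**Figure D4:**
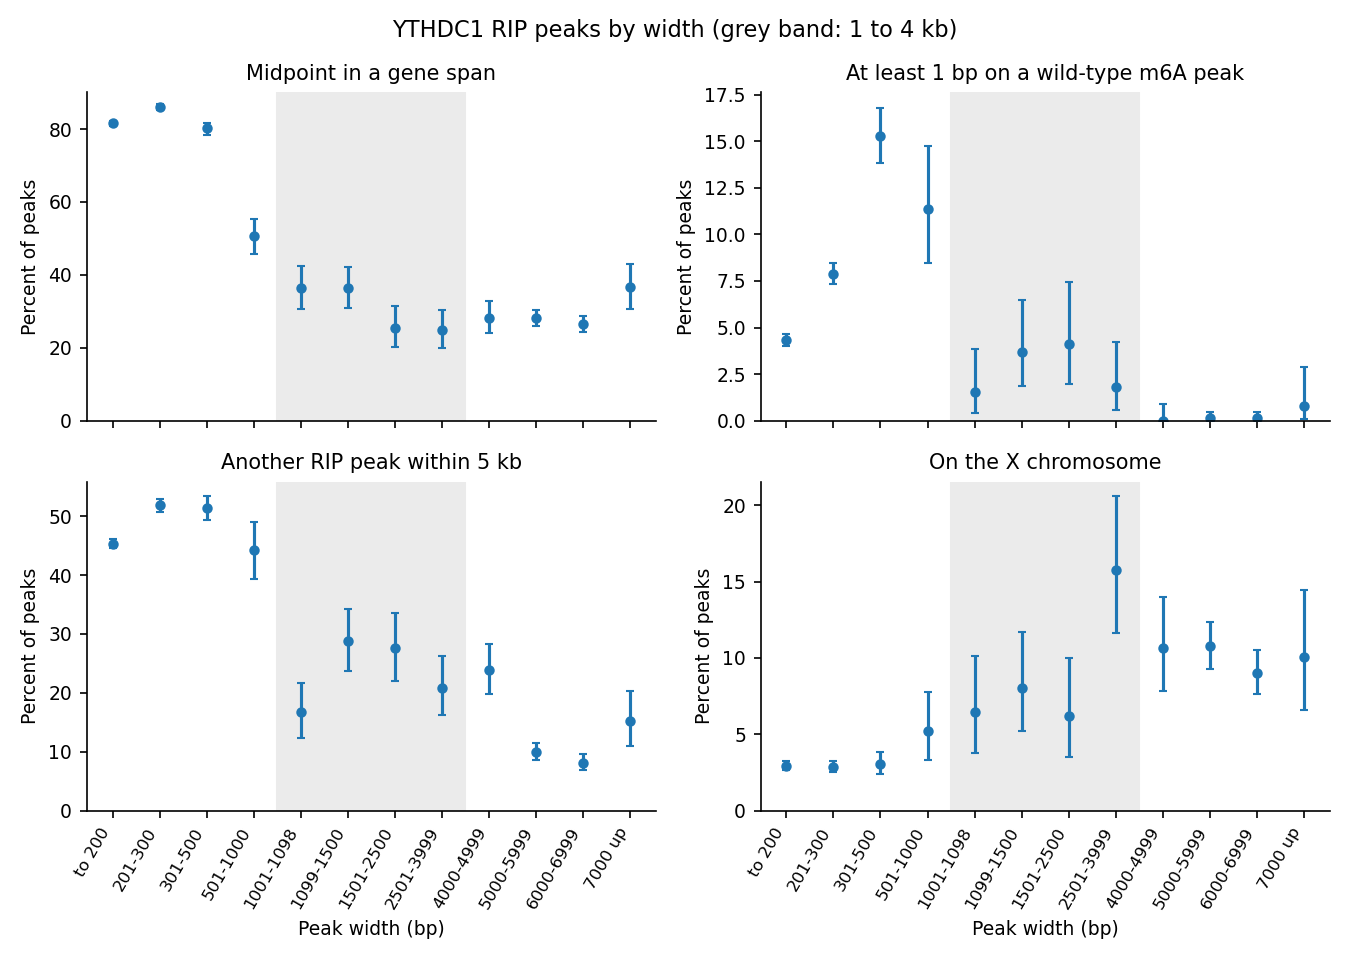
Percent of RIP peaks (vertical axes, points, with exact 95% intervals as bars) in 12 classes of width in bp (horizontal axis) with the midpoint in a gene span, at least 1 bp on a wild-type m6A peak, another RIP peak within 5 kb, or a position on X. The grey band marks 1 to 4 kb: the share in gene spans falls from 86.1% at 201 to 300 bp and 50.6% at 501 to 1000 bp to 24.9% at 2501 to 3999 bp, and the share on m6A, 4.33% up to 200 bp and 15.3% at 301 to 500 bp, lies between 1.52% and 4.12% in the band.

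Within the class, the share in gene spans was 34.2% for peaks of 1093 to 1098 bp, 39.7% from 1099 to 1250 bp, 22.2% from 2001 to 2500 bp and 18.1% from 3001 to 3500 bp. The fall with width was not steady: the share was 29.4% (exact 95% interval 19 to 41.7) from 2501 to 3000 bp and 27.9% (19.8 to 37.2) from 3501 to 3999 bp, and both intervals overlap that of 1099 to 1250 bp (31.1 to 48.8). Just below the lower limit, at 501 to 1000 bp, 50.6% (45.7 to 55.5) were in gene spans.

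The 335 peaks in spans fell in 311 genes, 0.899% of the 34610 genes used, whereas 28.7% of those genes were assigned the midpoint of any RIP peak. Protein-coding genes held 274 of the peaks and long non-coding RNA genes 61. The host genes were long: their median span was 122149 bp, against 27072 bp for genes with a narrower peak, 159803 bp for genes with a wider peak and 12758 bp for all genes. Spans over 100 kb made up 54% of the hosts (168) and 7.83% of all genes. The peaks were wholly inside the span in 332 of 335 cases. Of the midpoints, 0 lay within 200 bp of a span end, which allows a share of up to 0.895%. A peak over 1000 bp wide can have its midpoint that near an end only by running past it. The same shares of narrower and wider peaks were not computed, so these values do not show that gene ends were avoided. Where the strand was known (283 peaks), the median position was 0.485 of the way from the gene's start to its end, close to the middle.

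Host genes also carried other RIP peaks. Of the 311, 160 (51.4%) held a narrower peak, against 27% of all genes, and 76 (24.4%) held a wider one, against 2.4%. A wild-type m6A peak was assigned to 96 (30.9%), against 19% of all genes, and a knockout one to 49 (15.8%), against 11.4%. The hosts' spans were also longer than those of all genes, and the part of length in these shares was not tested.

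Of the 311 hosts, 19 held at least 2 peaks, and the genes with the most had spans from 56169 to 1266676 bp. Gm4724, in the dense stretch of chromosome 2, held 4 of 1078, 1786, 1078 and 2129 bp. Agbl4, a tubulin deglutamylase gene with a span of 1266676 bp, held 3 of 1663, 2969 and 1284 bp. Cacna2d3, an auxiliary calcium channel subunit, held 3 of 1097, 2951 and 1062 bp, with no other RIP peak and no m6A peak in its span of 817833 bp. Kcnip4, a potassium channel-interacting protein, held 2 of 3934 and 2953 bp. Adarb2, a catalytically inactive relative of the RNA-editing enzymes, held 2 of 1263 and 3602 bp. Cdh12, a cadherin, held 2 of 1336 and 3269 bp beside 5 wider peaks. Gnaq, a G protein alpha subunit, held 2 of 1157 and 3621 bp beside 7 narrower peaks. Rngtt, the messenger RNA capping enzyme, held 2 of 2132 and 2393 bp beside 9 narrower peaks. Trim30a, a TRIM family protein of innate immunity, held 2 of 3442 and 1098 bp in the shortest of these spans, 56169 bp.

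Genes chosen for stem cell and RNA biology mostly held narrower peaks. The 10 gene lists covered pluripotency, m6A factors, retrotransposon silencing, 2-cell-like genes, chromatin, splicing, nuclear and imprinted long non-coding RNAs, histones and markers of other cell types. Of their 269 matched genes, 1 (0.372%) held a peak of 1 to 4 kb, beside 0.899% of all genes, whereas 185 held a narrower RIP peak and 1 a wider one. The exception was Snhg14, the long imprinted host RNA of small nucleolar RNAs opposite Ube3a, with a peak of 2475 bp (chr7:59382230-59384704) 110730 bp from the nearest end of its span. Of all genes, 27% held a narrower RIP peak. Narrower peaks were in 23 of 29 pluripotency factors, 30 of 33 genes of retrotransposon silencing, 35 of 36 splicing factors and 33 of 36 chromatin regulators. They were in 4 of 18 germ layer markers, 4 of 14 trophoblast and fibroblast markers and 1 of 22 genes of the 2-cell-like state.

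Few of the peaks met an m6A peak. The midpoint lay in a wild-type m6A peak for 13 of 1079 (1.2%, exact 95% interval 0.643 to 2.05), against 4.14% of all RIP peaks and 4.87% of narrower peaks (1269; odds ratio 0.238, 0.138 to 0.413; two-sided Fisher's exact test, adjusted p = 2.6e-10). None of the 3829 wider peaks had its midpoint in a wild-type m6A peak, which allows a share of up to 0.0783% (exact test against the peaks of 1 to 4 kb, adjusted p = 3.8e-09). The difference from narrower peaks depended on how overlap was read. It was smaller among peaks in gene spans (odds ratio 0.569, exact test, adjusted p = 0.0887) and after RIP peaks less than 500 bp apart were joined (0.727, exact test, adjusted p = 0.0529). It turned to 1.13 (exact test, adjusted p = 0.521) when at least 50% of an m6A peak had to be covered, a measure that grows with width.

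Still fewer met a knockout m6A peak. The midpoint lay in a knockout m6A peak for 2 of 1079 (0.185%), against 3.8% of all RIP peaks and 4.5% of narrower peaks (1175; odds ratio 0.0394, 0.00982 to 0.158; two-sided Fisher's exact test, adjusted p = 3.7e-18). Against wider peaks (1 of 3829) the odds ratio was 7.11 (0.644 to 78.5; exact test, adjusted p = 0.137), and 6.24 (adjusted p = 0.00433) when an overlap of at least 1 bp was counted. By an overlap of at least 1 bp, 30 peaks (2.78%) touched a wild-type m6A peak, against 5.64% of all RIP peaks, and 7 (0.649%) touched a knockout one, against 4.83%. Per Mb of RIP peak, the peaks of 1 to 4 kb held 20.2 midpoints of wild-type m6A peaks and 3.45 of knockout ones. Narrower peaks held 132 and 216 per Mb, and wider peaks 0.4 and 0.178. The lists have 12368 and 6764 peaks and no height, so these values do not compare the amount of m6A between genotypes.

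The 30 peaks on wild-type m6A carried 49 m6A peaks, of which 31 were wholly inside. At least 2 m6A peaks lay on 11 of them, and at least 3 on 6. Of the 30, 22 had their midpoint in a gene span, beside 31% of the 1079 and 73.9% of all RIP peaks. S100a7l2, of the S100 family of calcium-binding proteins, held the widest, 3963 bp with 4 m6A peaks of 100 to 400 bp (chr3:91094991-91098953). Brd1, a scaffold of histone acetyltransferase complexes, held 1811 bp with 4 m6A peaks (chr15:88708669-88710479). Orc3, a subunit of the origin recognition complex, held 1787 bp with 3 (chr4:34590395-34592181). Trpm3, a cation channel, held 2255 bp with 2 (chr19:22723818-22726072), and Cdh18, a cadherin, 2755 bp with 1 (chr15:22700419-22703173). The peak in Zfp934, a zinc finger gene, is the 2252 bp peak at the Gm38639 start printed above. In Dlgap1, a postsynaptic scaffold, an m6A peak of 1050 bp lay within a RIP peak of 1521 bp (chr17:70799695-70801215). In Gm29721, an m6A peak of 1450 bp lay within one of 2673 bp.

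Platr10, a long non-coding RNA named for its link to pluripotency, had the largest share of its span covered among hosts longer than their peaks. Its 2 peaks, of 1503 and 2166 bp, covered 42.4% of its span of 8291 bp, 3512 bp in all, since the second runs past the annotated start (chr3:75647441-75655731, minus strand). The 2166 bp peak is the one across the start printed above and held a 150 bp wild-type m6A peak. The 1503 bp peak (chr3:75648175-75649677) lay near the other end and held a wild-type m6A peak of 650 bp and a knockout one of 200 bp that began at the same position. It was 1 of only 2 peaks that met both m6A lists; the other was 2673 bp wide, outside gene spans (chr10:74715560-74718232), with 3 wild-type m6A peaks and 1 knockout one.

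Moap1, a proapoptotic gene derived from a retrotransposon gag gene, followed in share of span. Its single peak of 1170 bp (chr12:102742271-102743440) covered 30.5% of a 3832 bp span, and 2 wild-type m6A peaks of 400 and 700 bp covered nearly all of it. Pnma2, a gag-derived gene of the same family, held a 1022 bp peak (chr14:66916122-66917143) with a 450 bp wild-type m6A peak across its left edge.

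Knockout m6A peaks lay on 7 of the peaks, wholly inside in all 7, and 3 of the 7 were of the recurring width of 1272 bp. In those 3 peaks, the m6A peak began 621, 667 and 456 bp from the left end; the second was in Gpsm1, a modulator of G protein signalling (chr2:26336834-26338105). The remaining knockout m6A peaks in named genes were in Platr10 (the 1503 bp peak described above), Kcnh6, a potassium channel (1312 bp peak), and Katnal2, a katanin-like gene (1036 bp peak). Another 2 of the 10 peaks of 1272 bp touched a wild-type m6A peak, 1 of them in Lrrc8d, a subunit of a volume-regulated anion channel. On chromosome 17, 2 peaks of 1296 bp with starts 31368 bp apart, in Gm3255 and Gm52298, each had a 900 bp wild-type m6A peak across the right edge, beginning 924 and 906 bp from the left end.

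**Figure D5:**
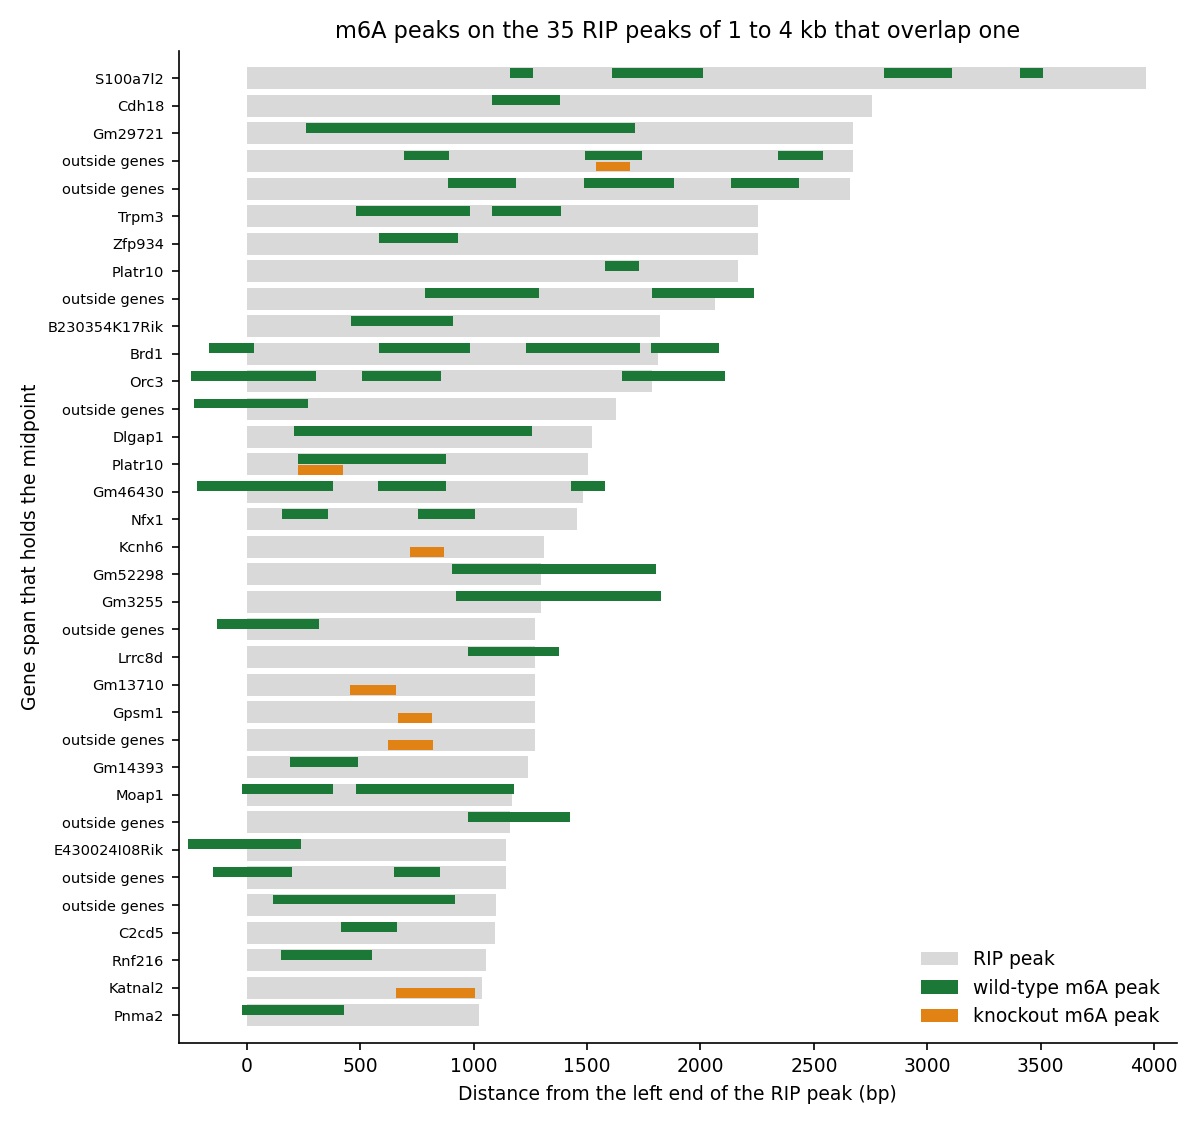
Positions of wild-type (green) and knockout (orange) m6A peaks on the 35 RIP peaks of 1 to 4 kb (grey bars) that touch either list; the horizontal axis is the distance in bp from the left end of the RIP peak, and each row is 1 RIP peak named by the gene span of its midpoint, widest at the top. The 4 wild-type m6A peaks of S100a7l2 are spread over its 3963 bp, both lists meet in 2 rows, and the 3 orange bars in rows of 1272 bp begin 456 to 667 bp from the left end.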

How the data were processed

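The authors deposited 3 peak lists with 3 columns (chromosome, start, end), whose values are positions in bp; no other unit, height or score came with them. The submitters' processing notes name the build mm10 and list MACS2 2.1.2, HISAT2 2.2.0, SAMtools 1.9, STAR 2.7, Trim Galore 0.6.4 and bcl2fastq. What each of them did, the peak threshold, any pooling of replicates and the handling of multiply mapping reads are not stated in the labels. Groups follow the titles, because the knockout samples carry a wild-type cell type label. A Halo-GFP control named in the labels' protocols was not analysed here. Both ends were multiples of 50 bp for 100% of m6A peaks in each list and for 0.513% of RIP peaks, so the lists were made by different steps.

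From these lists, Python 3.11.15 with pandas 2.3.3, numpy 2.4.6 and scipy 1.17.1 classed RIP peaks by width and placed midpoints in 34610 protein-coding and long non-coding RNA spans of the RefSeq GRCm38.p6 gene table. Where spans overlapped, a midpoint was assigned to a protein-coding gene first and then to the shortest span. Shares have exact Clopper-Pearson 95% intervals, and a count of 0 is given with the share that 3 counts would make; both cover counting error only. Fisher's exact test, two-sided, compared the peaks of 1 to 4 kb with narrower and wider ones, with odds ratio intervals of 95% (Wald) and Benjamini-Hochberg adjustment over 10 tests at 0.05. Overlap, distance and width routines were tested on simulated intervals. Coordinates are printed counting from 1.

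The members and the gene lists were chosen with earlier results of these data known. Named genes were those with the most peaks (10), the widest peaks on m6A, list genes with a peak, the first 4 genes at each of the 5 commonest widths, peaks at both limits and the 10 largest shares of a span; provisional names counted in ranks and were printed where no other name was left or where a result turned on them. Other genes on m6A peaks or at 6 bp gaps were named after their values were seen. Of 274 list names, 5 added no gene of their own to the 269 matched. Other width limits, joined peaks, gene models, overlap rules and distances were tried. GC, masked bases and identity among peaks, planned from a genome sequence, were not analysed here, and promoter windows were read in their place, a choice made after the files were seen.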

Additional observations from a re-analysis of the deposited data

How the results depend on the processing

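Of 73 recomputed values, 58 kept their direction and their side of the threshold (for the number of recurring widths, stayed within 1.5 times 19). Limiting narrower peaks to 500 to 1000 bp was counted for the comparisons with narrower peaks only. The odds ratio in gene spans against narrower peaks ran from 0.072 to 0.44, that of X against narrower peaks from 1.84 to 4.15, and those of a neighbour within reach from 0.247 to 0.544 (narrower) and 2.36 to 3.98 (wider). With members of 1500 to 4000 bp, 3 comparisons with wider peaks turned: gene spans to 0.863, X to 1.14 and knockout m6A to 0. With members of 1000 to 2500 bp, gene spans against wider peaks rose to 1.27 and X fell to 0.674, both past the threshold (exact test, adjusted p = 0.00597 and 0.00731). With RIP peaks less than 500 bp apart joined, the odds ratios against wider peaks were 1.76 for gene spans, 52.4 for knockout m6A and 0.772 for X, all past the threshold, and wild-type m6A against narrower peaks weakened to 0.727. Within gene spans it weakened to 0.569, and with at least 50% of an m6A peak covered it turned to 1.13. Knockout m6A against wider peaks passed the threshold at 6.24 with at least 1 bp of overlap and at 6.24 with at least 50% of an m6A peak, and was 0 with m6A peaks above the median width of their list. Within gene spans the last comparison gave no odds ratio, since no wider peak had its midpoint in a knockout m6A peak there. Asking for at least 10 members left 8 recurring widths. The causes were not tested. Counting same-width peaks within 1 Mb once, an alternative chosen after seeing the data, moved no comparison across the threshold. No paired analysis was possible because the lists carry no values per replicate, and for the same reason no replicate could be left out. Depth is unknown, so an absent overlap is not evidence that the RNA lacks m6A.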

Other observations

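Because Moap1 and Pnma2 appeared among the genes with a peak of 1 to 4 kb, the other genes derived from retrotransposon gag sequences were looked up after those values were seen. Of 21 names, Moap1 and Pnma2 included, 19 matched a gene. A RIP peak of any width was in 6 of them, beside 28.7% of all genes, and a wild-type m6A peak in 7, beside 19% of all genes. Both counts include Moap1 and Pnma2, which prompted the search through such peaks, so no enrichment of the family can be read from them. A peak of 1 to 4 kb was in 2 (Moap1 with 1170 bp and Pnma2 with 1022 bp), the genes that prompted the search, beside 0.899% of all genes. Peg10, a gag-pol-derived imprinted gene, held 1 RIP peak of 340 bp beside 4 wild-type and 2 knockout m6A peaks. Arc, whose protein forms capsids, held 2 RIP peaks of up to 347 bp and 2 wild-type m6A peaks. Rtl1 held 1 RIP peak of 200 bp, and Rtl4 held 2, the wider of 5793 bp, with no m6A peak. The family was assembled after the data were seen, and no test was made of it.

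On chromosome 13, 3 RIP peaks between 74445711 and 74606700 had widths of 1144, 1141 and 1480 bp, and a wild-type m6A peak lay across the left edge of each. These m6A peaks at the left edge ended 240, 200 and 380 bp into the RIP peak. The first RIP peak lay in E430024I08Rik, the second outside gene spans and the third in Gm46430. The second also held a wild-type m6A peak from 650 to 850 bp. The third also had wild-type m6A peaks from 580 to 880 bp and from 1430 to 1580 bp, the last across its right edge.

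Away from the overlaps, 48 of the 1079 peaks (4.45%) had a wild-type m6A peak within 5 kb, those that touch one included, against 20.5% of all RIP peaks, 24% of narrower and 0.757% of wider ones. The median distance to the nearest was 317504 bp, against 23510 bp for narrower and 444973 bp for wider peaks. A gap of 14 bp was the next commonest after 6 bp among gaps of 1 to 30 bp, with 6 pairs. A gap of 65 bp separated 4 pairs that include a peak of 1 to 4 kb and 8 that do not. A gap of 395 bp separated 3 pairs that include such a peak, 2 of them between the Saxo1 peaks, and 7 that do not.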
